A study of Homo sapiens with 6 samples.

Results

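YAP1 and its paralog WWTR1, which encodes TAZ, are transcriptional coactivators, and TEAD1 and TEAD4 are the DNA-binding factors through which they act. Together with 6 genes that TEAD factors are known to switch on (CCN1, CCN2, ANKRD1, AMOTL2, LATS2 and AJUBA), they make up the set described here. The 10 genes were picked by symbol, with earlier results of these data known, from a table of 78932 genes, and all 10 were found in it. The counts come from poly(A) RNA of T24 cells, an established human urothelial carcinoma line. In 3 cultures the cells were transfected with siNC, a non-targeting control siRNA, and in 3 others with siTRIM28, siRNA against TRIM28. The study used a pair of TRIM28 siRNAs, and the labels do not name which of them these cultures received. No time after transfection is given, and the labels place all 6 cultures in batch 1.

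YAP and TAZ sit at the end of the Hippo pathway. Its kinases STK3 and STK4, with the adaptor SAV1, activate LATS1 and LATS2, which phosphorylate YAP and TAZ and so keep them out of the nucleus. When this brake is off, for instance in spread cells on a stiff surface, YAP and TAZ enter the nucleus, bind TEAD factors and raise genes for secreted matrix proteins and growth regulators. Several of those targets, LATS2, AMOTL2 and AJUBA among them, act back on the pathway, so the set holds regulators as well as readouts. RNA counts measure transcript levels, not the phosphorylation or the location of YAP and TAZ.

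The letters that TEAD factors recognise are CATTCC, or GGAATG on the other strand. They were searched on both strands in RefSeq promoter windows (GRCh38.p14) of 300 bases, which run from 250 bases before to 50 bases after a gene's start site. Of the 10 genes, 7 had such a window, and TEAD1, TEAD4 and CCN1 had none. In 6 of the 7 at least 1 window held the motif, against 16.7% of the 27305 genes with a window. WWTR1, with a pair of windows, was the gene without it. The CCN2 window held it 3 times, which 0.128% of the 35116 windows match or exceed, and the ANKRD1 window held it 2 times. The AP-1 motif TGANTCA, which does not overlap it, was found in the ANKRD1 window, between 195 and 189 bases before the start site, and in none of the other member windows. It occurs in 7.71% of all windows. YAP1, AMOTL2, LATS2 and AJUBA each held 1 TEAD motif. In LATS2 it lay after the start site, from base 10 to base 15, and AMOTL2 and AJUBA held it at the second of 2 annotated starts. The 250 bases before the start sites of CCN2, ANKRD1 and AMOTL2 are printed because these target genes differ in how their counts moved. Capitals mark the TEAD motif and, in ANKRD1, also the AP-1 motif TGATTCA. The CCN2 bases lie at chr6:131951373-131951622, those of ANKRD1 at chr10:90921088-90921337 and those of AMOTL2 (second start) at chr3:134374448-134374697, all on the minus strand, the last of them inside the annotated span of its gene, and written 5′ to 3′ along the gene.
CCN2: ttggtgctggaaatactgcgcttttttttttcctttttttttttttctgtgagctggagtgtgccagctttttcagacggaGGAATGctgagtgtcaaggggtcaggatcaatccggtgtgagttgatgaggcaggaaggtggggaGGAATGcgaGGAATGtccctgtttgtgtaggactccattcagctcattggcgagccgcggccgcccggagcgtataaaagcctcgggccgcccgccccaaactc
ANKRD1: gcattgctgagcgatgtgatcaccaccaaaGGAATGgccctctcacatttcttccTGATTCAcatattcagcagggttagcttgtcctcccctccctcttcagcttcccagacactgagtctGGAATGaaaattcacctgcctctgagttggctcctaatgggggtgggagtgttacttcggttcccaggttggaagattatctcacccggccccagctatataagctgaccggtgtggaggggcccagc
AMOTL2: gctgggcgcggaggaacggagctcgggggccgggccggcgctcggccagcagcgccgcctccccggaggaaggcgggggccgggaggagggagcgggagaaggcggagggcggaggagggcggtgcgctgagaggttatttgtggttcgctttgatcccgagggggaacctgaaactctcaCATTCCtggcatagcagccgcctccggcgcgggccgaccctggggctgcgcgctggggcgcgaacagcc
A match of letters is a description and not evidence of binding.

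**Figure D1:**
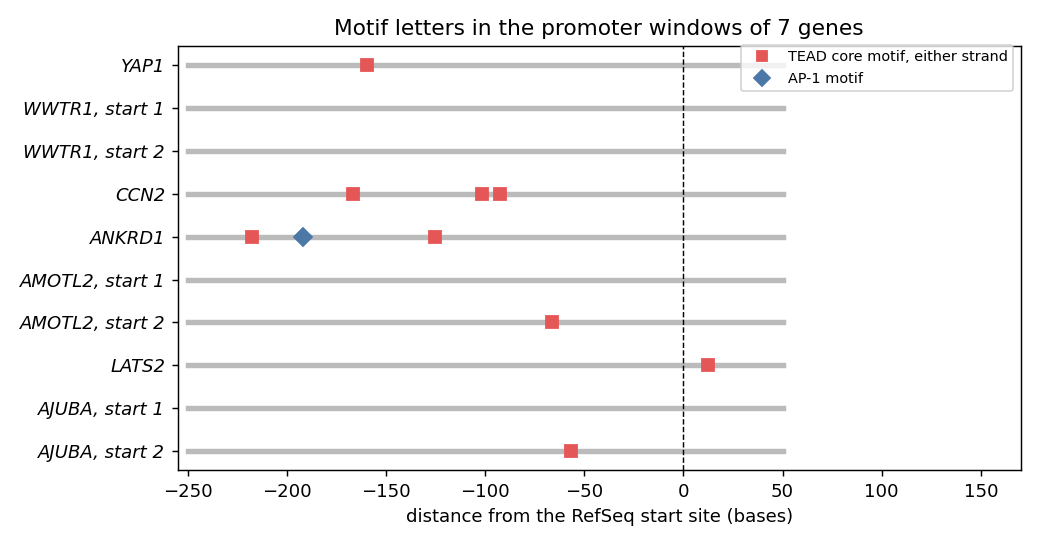
Positions of the TEAD core motif (red squares) and the AP-1 motif (blue diamonds) in the RefSeq promoter windows of 7 genes, in bases from the start site (dashed line). Grey bars are the windows, from 250 bases before to 50 bases after each start. CCN2 holds 3 TEAD motifs and ANKRD1 holds 2, whereas the windows of WWTR1 and the first starts of AMOTL2 and AJUBA hold none.

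Total counts lay between 11712623 and 14018052 per library. TRIM28 fell to 8.55% of its siNC level (log2 fold change −3.54, standard error 0.0723). siNC replicate 3 and siTRIM28 replicate 1 stood apart from the other libraries of their groups, with a chi-square per degree of freedom of 4.17 to 6.25 in every pair that held one of them, against 1.08 and 1.22 in the remaining pairs. The remaining pairs differed by only a little more than sampling noise, which does not by itself show that they are separate cultures. All 6 libraries were counted because they are described as biological replicates. Should a close pair share a culture, n = 3 would be too many. KRT8 and KRT18 were the abundant urothelial markers, and 9 of 14 markers, UPK1B and KRT20 with no count among them, were on average under 1 CPM (TMM-scaled counts relative to library size) in both groups. Of the 6 urothelial markers tested, 4 were called higher (UPK1A from 0.874 ± 0.490 to 3.41 ± 0.658 CPM, TP63 from 0.469 ± 0.180 to 0.966 ± 0.262 CPM, KRT7 from 2.84 ± 0.157 to 4.196 ± 0.0965 CPM and KRT8 from 104 ± 0.619 to 114 ± 5.39 CPM, mean ± SD, n = 3 each) and none lower, at an unadjusted p under 0.05 as well, while DESeq2 called only UPK1A. The call of TP63 was lost without siNC replicate 2 (log2 fold change 0.75) or 3 (1.01) and TP63 missed the count minimum without any one siTRIM28 library, and that of KRT8 (0.14) was lost without siNC replicate 1 (0.13), 2 (0.14) or 3 (0.14) or siTRIM28 replicate 1 (0.10) or 3 (0.14). TP63 reached 10 counts in the siTRIM28 libraries alone, so it entered the test only through the group in which it was higher. The called share of the urothelial markers tested, TP63 among them, was 66.7%, beside 41.8% of all genes tested. KRT18 and FOXA1 were tested and not called, with log2 fold changes of 0.08 and −0.16. GATA3 (mean 0.585 CPM in siNC and 0.249 CPM in siTRIM28) and KRT19 (0.337 and 0.147 CPM) were too rare to be tested. Their means were lower in siTRIM28, and their groups overlapped. Summed over the list, urothelial markers were 193 to 199 CPM in siNC and 213 to 221 CPM in siTRIM28. The 6 fibroblast markers summed to 2.17 to 3.46 CPM in siNC and 3.86 to 5.41 CPM in siTRIM28, and 1 of the 2 tested was called, COL1A1 (0.932 ± 0.265 to 3.28 ± 0.635 CPM). Of 6 immune and endothelial markers, CD3E and CDH5 had no count and CD68 alone was abundant. The part of these differences in the results was not tested.

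Silencing TRIM28 split the set. AMOTL2, LATS2 and CCN2 fell clearly, to 43.5%, 61.5% and 74.1% of their siNC levels, while CCN1, the most abundant member per base of gene length, was not called. TEAD4 and YAP1 fell and WWTR1 rose by small amounts, and with single libraries left out these 3 kept their direction but some of their calls were lost. TEAD1 and AJUBA were not called, and ANKRD1 was too rare to enter the test. In bulk RNA, fewer cells that express a gene and less RNA per cell cannot be told apart.

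Groups were compared by edgeR's quasi-likelihood test, fitted over the 18474 genes that reached 10 counts in 3 or more libraries, with Benjamini-Hochberg adjustment and a threshold of 0.05. Of the 10 genes 9 were tested, 5 were called lower and 1 higher in siTRIM28, and 3 were not called. Over all genes tested, 41.8% were called, 20.5% lower and 21.3% higher, so a call by itself is common in these data. The groups did not overlap in 6 of the 9, against 52.0% of all genes. The median log2 fold change of the 9 was −0.14, beside 0.02 over all genes tested, and the median absolute change was 0.14, beside 0.27. Only AMOTL2 and LATS2 also changed by at least 0.58 on the log2 scale, as 17.0% of all genes did. With DESeq2, which called 3 members lower and none higher, AMOTL2, LATS2 and CCN2 were the ones left. Over all 18474 genes DESeq2 called 5878. The count of lower members was also 3 without siNC replicate 1, without siNC replicate 3 or without siTRIM28 replicate 3, and 4 without both libraries that stood apart. The count of higher members was 0 without siNC replicate 1, 2 or 3. At an unadjusted p under 0.05, the same numbers were reached, 5 lower and 1 higher.

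**Figure D2:**
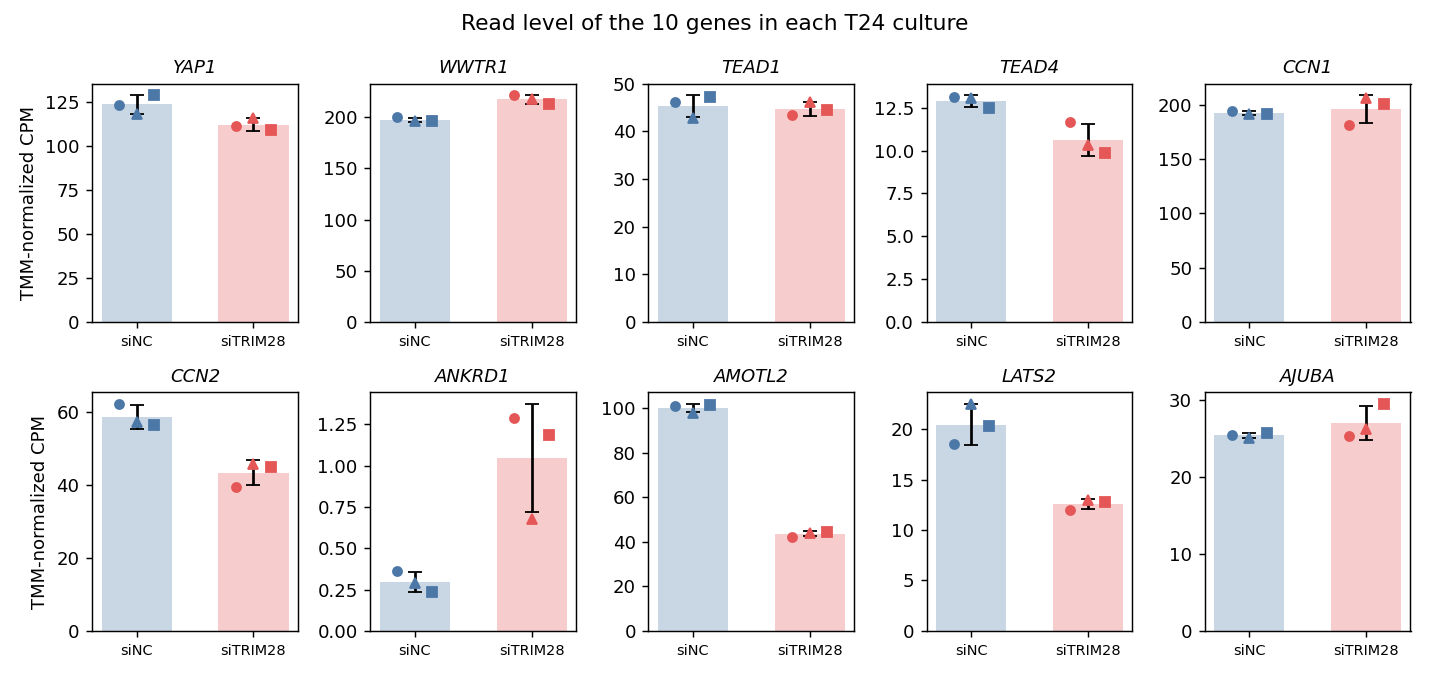
TMM-normalized CPM of each of the 10 genes in the 3 siNC (blue) and 3 siTRIM28 (red) cultures. Bars are means with SD, points are cultures (circle, triangle and square for replicates 1, 2 and 3), and each panel has its own axis from 0. The siTRIM28 points of AMOTL2 lie between 42.3 and 44.4, far under the siNC points, while those of CCN1 lie on both sides of the siNC points.

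Among the coactivators, YAP1 (ENSG00000137693, chromosome 11, 102110447 to 102230579, plus strand, GRCh38) had 123, 118 and 129 CPM in the siNC cultures and 111, 116 and 109 CPM in the siTRIM28 cultures. Every siTRIM28 value lay under every siNC value, with the nearest values only 2 CPM apart at 116 and 118. The log2 fold change was −0.14 ± 0.0488 (SE, edgeR, adjusted p = 0.0370). WWTR1 (ENSG00000018408, chromosome 3, 149517235 to 149736714, minus strand) had 199.7, 196 and 196 CPM in siNC and 221, 217 and 213 CPM in siTRIM28. All siTRIM28 cultures were higher, by a log2 fold change of 0.14 ± 0.0389 (SE, edgeR, adjusted p = 0.0129). The paralogs therefore moved in opposite directions. The log2 ratio of YAP1 to WWTR1 went from −0.67 ± 0.0625 to −0.95 ± 0.0461 (mean ± SD, n = 3), a difference of −0.28 (exact two-sided permutation test, p = 0.1, the smallest that 3 against 3 allows, and 0.133 adjusted over 4 pairs of genes). Both genes have annotated genes on the opposite strand of their span, with 257 to 353 and 92 to 137 counts per library for ENSG00000277459 and ENSG00000254422 at YAP1 and 112 to 140 counts for WWTR1-AS1, and whether counting used strand is not given in the sources used here. With 1 library left out at a time, the log2 fold change ran from −0.17 to −0.11 for YAP1 and from 0.13 to 0.15 for WWTR1, but the calls were not kept throughout. YAP1 was not called without siNC replicate 1 (−0.15), without siNC replicate 3 (−0.11), without siTRIM28 replicate 3 (−0.13), with upper-quartile or total-count scaling, or with DESeq2. Nor was it called with a block for the replicate number, with the close libraries of each group summed or without both libraries that stood apart. The call of YAP1 was thus lost in 9 of 16 alternative fits. WWTR1 was not called without siNC replicate 1 (0.14), 2 (0.13) or 3 (0.13), with DESeq2, with no filter or with the close libraries summed, which makes 6 of 16.

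Of the DNA-binding factors, TEAD1 (ENSG00000187079, chromosome 11, 12674421 to 12944483, plus strand) had 46.1, 42.8 and 47.2 CPM in siNC and 43.4, 46.2 and 44.4 CPM in siTRIM28. The groups overlapped, and the 95% interval of its log2 fold change ran from −0.16 to 0.11. TEAD4 (ENSG00000197905, chromosome 12, 2959330 to 3040676, plus strand) had 13.1, 13.1 and 12.5 CPM in siNC and 11.6, 10.3 and 9.88 CPM in siTRIM28. All siTRIM28 cultures were lower, with a log2 fold change of −0.28 ± 0.0896 (SE, edgeR, adjusted p = 0.0276). This call was lost with DESeq2, and without siNC replicate 1 (−0.27), 2 (−0.27) or 3 (−0.30) or siTRIM28 replicate 2 (−0.26) or 3 (−0.23). It was also lost with the close libraries of each group summed, so in 7 of 16 alternative fits. The log2 ratio of TEAD1 to TEAD4 was 1.80 ± 0.104 in siNC and 2.06 ± 0.153 in siTRIM28 (difference 0.26, exact two-sided permutation test, p = 0.2, where 0.1 is the smallest possible), and the groups overlapped. The other family members, TEAD2 at 13.9 ± 0.955 CPM in siNC and 14.3 ± 1.86 CPM in siTRIM28 and TEAD3 at 3.64 ± 0.233 and 4.52 ± 0.407 CPM, were not called.

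CCN1 and CCN2 encode secreted matricellular proteins of one family and are the most widely used readouts of YAP and TAZ. CCN1 (ENSG00000142871, chromosome 1, 85580761 to 85583930, plus strand) had 194, 191 and 192 CPM in siNC and 182, 206 and 200.5 CPM in siTRIM28. One siTRIM28 culture lay under all siNC cultures and the other two above them, and the 95% interval of the log2 fold change was −0.08 to 0.14. CCN2 (ENSG00000118523, chromosome 6, 131948176 to 131951372, minus strand) had 62.2, 57.1 and 56.3 CPM in siNC and 39.5, 45.7 and 44.9 CPM in siTRIM28. All siTRIM28 cultures were lower, and the log2 fold change was −0.43 ± 0.0712 (SE, edgeR, adjusted p = 4.57e-04). The pair of readouts thus came apart. The log2 ratio of CCN1 to CCN2 rose in every siTRIM28 culture, from 1.72 ± 0.0653 to 2.17 ± 0.0224 (mean ± SD, n = 3), a difference of 0.46 (exact two-sided permutation test, p = 0.1, 0.133 adjusted over 4 pairs). CCN2 overlaps LINC01013 on the opposite strand, which had 171 to 265 counts per library. The remaining CCN genes, CCN3 to CCN6, were under 1 CPM in both groups and none was tested.

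AMOTL2 showed the steepest fall of the set. It encodes a scaffold at cell junctions that binds YAP and holds it in the cytoplasm, and is itself a target gene. AMOTL2 (ENSG00000114019, chromosome 3, 134355347 to 134375479, minus strand) had 101, 97.9 and 101 CPM in siNC and 42.3, 44.0 and 44.4 CPM in siTRIM28. The groups were far apart and each was tight, with a mean of 100.1 ± 1.91 CPM against 43.6 ± 1.14 CPM (SD, n = 3 each). The log2 fold change was −1.20 ± 0.0509 (SE, edgeR, adjusted p = 1.63e-08), lower than that of all but 1.28% of the genes tested. LATS2, the kinase that phosphorylates YAP and TAZ and is induced by them, fell as well. LATS2 (ENSG00000150457, chromosome 13, 20973036 to 21061586, minus strand) had 18.5, 22.5 and 20.3 CPM in siNC and 11.997, 13.0 and 12.8 CPM in siTRIM28. The groups did not overlap, and the log2 fold change was −0.70 ± 0.0869 (SE, edgeR, adjusted p = 5.63e-05). LATS1, its paralog with the same role, was not called, at 22.2 ± 0.832 and 23.3 ± 1.80 CPM with an interval of −0.09 to 0.23. The log2 ratio of LATS1 to LATS2 was 0.12 ± 0.185 in siNC and 0.88 ± 0.0621 in siTRIM28 (difference 0.76, exact two-sided permutation test, p = 0.1, 0.133 adjusted over 4 pairs). AMOTL2, LATS2 and CCN2 stayed lower and past the threshold in all 16 alternative fits, with adjusted p-values of at most 3.15e-05, 6.55e-04 and 0.00684.

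AJUBA, a LIM-domain protein that binds LATS kinases and restrains them, did not follow AMOTL2 and LATS2. AJUBA (ENSG00000129474, chromosome 14, 22971177 to 22982551, minus strand) had 25.5, 25.1 and 25.8 CPM in siNC and 25.4, 26.3 and 29.6 CPM in siTRIM28. The groups overlapped, and the interval of the log2 fold change was −0.07 to 0.24. Its span covers ENSG00000259132 on the same strand, which had 148 to 246 counts per library, so reads of these genes may have been split. ANKRD1 encodes a nuclear ankyrin-repeat protein that responds to stretch. ANKRD1 (ENSG00000148677, chromosome 10, 90912096 to 90921087, minus strand) had 5, 4 and 3 counts in the siNC libraries and 18, 8 and 14 counts in the siTRIM28 libraries. All siTRIM28 values were higher, in the direction opposite to CCN2 and AMOTL2. Summed over a group, 12 counts gave 0.296 CPM (exact Poisson 95% interval 0.153 to 0.518) in siNC and 40 counts gave 1.06 CPM (0.758 to 1.45) in siTRIM28, intervals that cover counting error only. ANKRD1 missed the count minimum. In a fit without that filter, over 46060 genes, its log2 fold change was 1.80 ± 0.453 (SE, edgeR, adjusted p = 7.16e-04). Unadjusted, edgeR gave 7.41e-05 there, the p-value of a normal curve, which takes no account of having only 6 libraries. Neither value is therefore comparable with the p-values of the filtered fit.

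**Figure D3:**
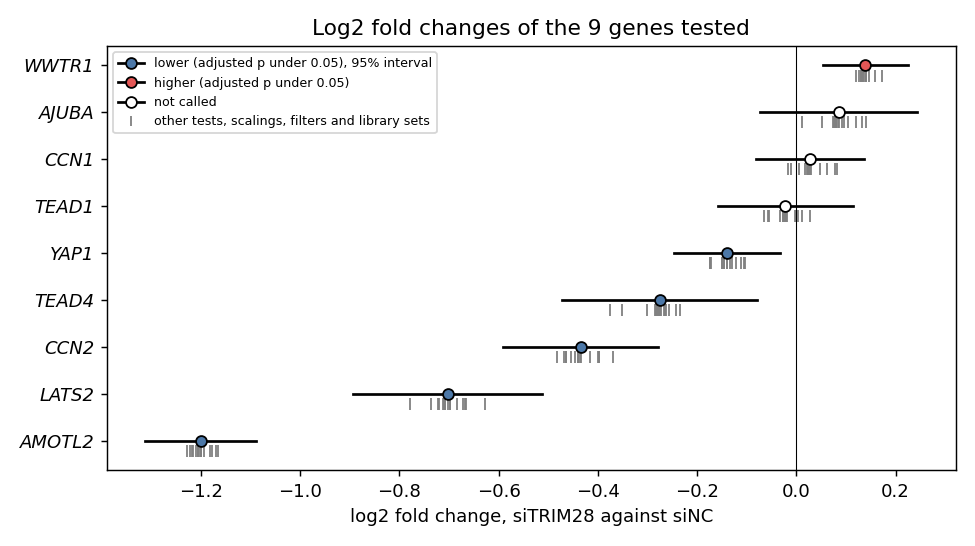
Log2 fold change, siTRIM28 against siNC, of the 9 genes tested, with the 95% interval of edgeR's fit. Blue points are lower and red points higher at an adjusted p under 0.05, white points are not called, and grey ticks are the values under the other tests, scalings, filters and library sets. The ticks of AMOTL2, LATS2 and CCN2 all lie well under 0, and those of TEAD1 and CCN1 lie on both sides of it.

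Per base of gene length, CCN1 was the most abundant member in siNC, at 52.0 ± 0.458 RPKM (CPM divided by gene length in kilobases), followed by CCN2 at 25.04 ± 1.37, WWTR1 at 23.6 ± 0.270, YAP1 at 19.6 ± 0.844 and AMOTL2 at 15.4 ± 0.295 RPKM. A gap separated these from TEAD4 at 5.66 ± 0.158 RPKM and from AJUBA, TEAD1 and LATS2 at 4.33 ± 0.0560, 4.24 ± 0.212 and 3.64 ± 0.360 RPKM. ANKRD1 came last at 0.165 ± 0.0350 RPKM. The siNC ranges of AJUBA and TEAD1 overlapped, as did those of TEAD1 and LATS2, and the other neighbours did not. In siTRIM28 WWTR1 at 26.0 ± 0.507 RPKM came before CCN2 at 18.6 ± 1.45 RPKM, whose range overlapped that of YAP1 (17.8 ± 0.553 RPKM). AMOTL2 stood at 6.72 ± 0.175 RPKM, above TEAD4 (4.66 ± 0.404), AJUBA (4.60 ± 0.376) and TEAD1 (4.18 ± 0.131). TEAD4 and AJUBA overlapped in range, as did AJUBA and TEAD1. Per base of gene length, the coactivator and DNA-binding genes kept their order (WWTR1, YAP1, TEAD4, TEAD1) in both groups. In siTRIM28 the lowest TEAD4 value was 4.34 RPKM and the highest TEAD1 value 4.32 RPKM. In CPM, which leaves out gene length, TEAD1 stood above TEAD4, with means of 45.4 against 12.9 in siNC and 44.7 against 10.6 in siTRIM28.

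The wider pathway did not move as one. Of 22 Hippo kinases and adaptors 21 were tested, 6 were higher, 6 were lower and 9 were not called, with a median log2 fold change of 0.07. The called share was 57.1%, beside 41.8% of all genes tested. TNIK, a kinase of the MAP4K group, rose from 6.44 ± 0.457 to 11.3 ± 0.462 CPM (edgeR log2 fold change 0.81, adjusted p = 7.83e-05). MAP4K2, a related kinase that can activate LATS, rose from 11.5 ± 1.03 to 17.3 ± 1.14 CPM. MINK1, of the same kinase group, rose by 0.43 on the log2 scale, and WWC1, which encodes the adaptor KIBRA, fell by 0.35. Of 11 scaffolds and inhibitors of YAP 10 were tested, 4 were higher and 3 lower, a called share of 70%. WTIP, a LIM protein related to AJUBA, rose from 2.69 ± 0.364 to 4.62 ± 0.639 CPM (edgeR log2 fold change 0.78, adjusted p = 0.00423). PTPN14, a phosphatase that binds YAP, rose from 96.5 ± 1.47 to 136 ± 2.58 CPM. The count of 7 called scaffolds was 2 without siNC replicate 1, 4 without siNC replicate 2, 4 without siTRIM28 replicate 2 and 3 without siTRIM28 replicate 3. Of 6 other TEAD factors and partners 4 were tested, with a called share of 25%. Among them VGLL4, which competes with YAP for TEAD, rose from 13.4 ± 1.18 to 17.7 ± 0.477 CPM, and none was lower in edgeR's test, at an unadjusted p under 0.05 or with DESeq2.

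A published signature of YAP and TAZ targets across cancers has 17 genes outside the set (PTPN14 is also among the scaffolds). Of the 16 tested, 7 were higher, 4 were lower and 5 were not called, with a median log2 fold change of 0.01. The called share was 68.8%, beside 41.8% of all genes tested. Without both libraries that stood apart, 7 were higher and 3 lower. IGFBP3, a secreted binding protein of insulin-like growth factors, rose from 4.73 ± 0.543 to 11.3 ± 1.50 CPM (edgeR log2 fold change 1.24, adjusted p = 2.66e-05). F3, the tissue factor that starts clotting, rose from 4.72 ± 0.807 to 7.80 ± 1.10 CPM. The ectonucleotidase gene NT5E rose by 0.48 and the receptor kinase gene AXL by 0.26 on the log2 scale. ASAP1, which encodes an ARF GTPase-activating protein of adhesions, fell from 277 ± 9.40 to 171 ± 10.6 CPM (edgeR log2 fold change −0.69, adjusted p = 9.34e-07). MYOF, a membrane repair gene, fell by 0.34 on the log2 scale. Among the other targets that were called, 4 thus had the direction of AMOTL2, LATS2 and CCN2 and 7 the opposite one. The 5 not called were of either sign.

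CCN1 and ANKRD1 are also known targets of SRF, the factor that reads actin assembly. Of 11 SRF target genes 9 were tested, 4 were lower and none higher, and 5 were not called. The called share was 44.4%, near the 41.8% of all genes tested, which were 20.5% lower and 21.3% higher. At an unadjusted p under 0.05, 6 were lower and none higher. DESeq2 called 4 lower and none higher, and over all 18474 genes it called 5878, 49.1% of them higher. Without both libraries that stood apart, edgeR called 4 lower and 2 higher. The share of all genes is not given here for the unadjusted threshold or for the fit without those libraries. CNN1, which encodes calponin, had 26, 26 and 15 counts in siNC and 4, 3 and 4 counts in siTRIM28. Its log2 fold change was −2.46 (adjusted p = 2.04e-04, edgeR), and it is among the 4 called lower. CNN1 reached the count minimum in the siNC libraries alone, so it entered the test only through the group in which it was higher. FLNA, an actin crosslinker, fell from 1599 ± 39.6 to 1147 ± 51.5 CPM, and TPM1, a tropomyosin gene, fell by 0.17 on the log2 scale.

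**Figure D4:**
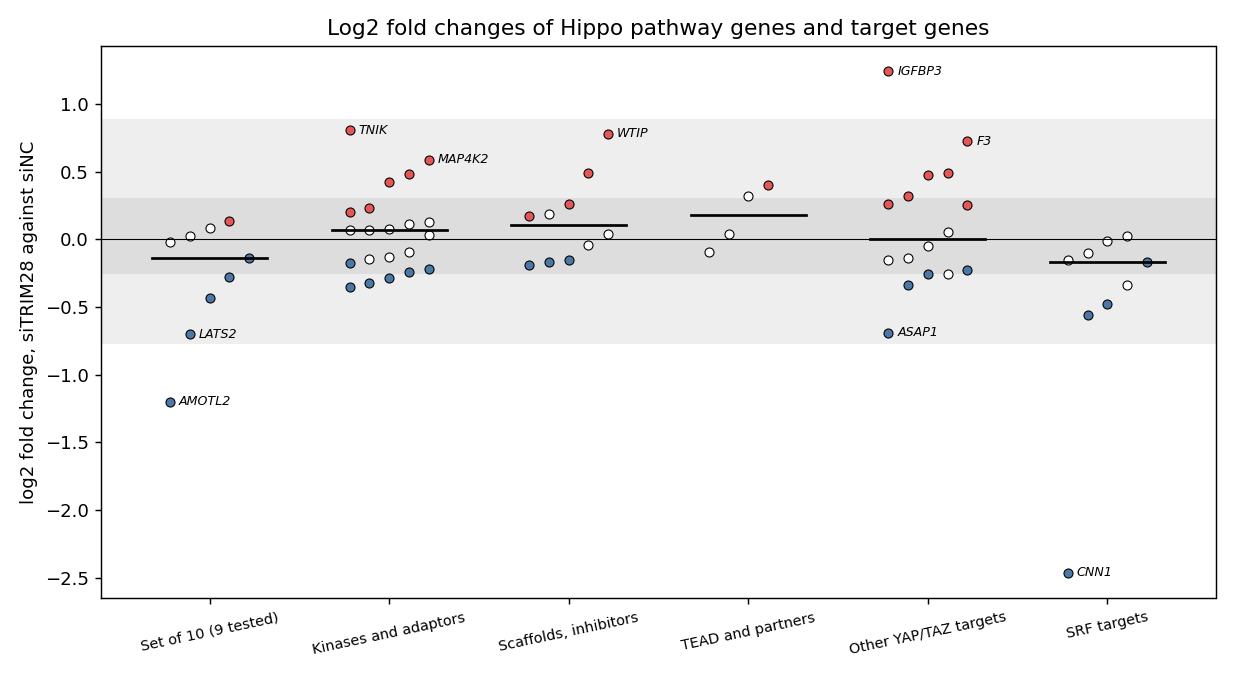
Log2 fold change, siTRIM28 against siNC, of the tested genes of 6 lists. Points are genes (blue lower and red higher at an adjusted p under 0.05, white not called), black lines are medians, and the grey bands hold the middle 50% and 90% of all genes tested. AMOTL2 and CNN1 lie under the wider band and IGFBP3 above it, and the kinases and other targets spread on both sides of 0.

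Over the 6 libraries, the genes whose log2 CPM ran closest to that of CCN2 among 11339 genes with a mean of at least 50 counts were SNORD49B, SLC9A3 and HACD2 (Pearson's r 0.998, 0.997 and 0.996). For CCN1 they were FHL1, ECH1 and ARHGAP17 (0.988, 0.981 and 0.980). For ANKRD1 they were SDR39U1, NT5C2 and ZNF433-AS1 (0.995, 0.995 and 0.994). These values describe 6 points in 2 groups, so a shared difference between the groups raises them.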

How the data were processed

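The authors deposited raw read counts per gene (GRCh38, 1 column per culture) for 78932 genes, with gene coordinates and lengths, which were used as given. The submitters' processing notes name fastp 0.23.1, STAR 2.7.6a and featureCounts. The annotation release, the strand setting and duplicate removal are not given in the sources used here. A table of RPKM for genes the authors selected as changed was not used. The library kit is described as stranded and poly(A)-selected.

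After TMM scaling, the groups were compared in R 4.3.3 by the quasi-likelihood functions of edgeR 4.0.16, with group as the only term, for the 18474 genes that reached 10 counts in 3 or more libraries. The paper names no test of single genes for these data, so this design was chosen here. Standard errors (SE) were taken from the fold change and its F statistic. Means ± SD are over 3 cultures, described as biological replicates. For single genes and ratios, log2 CPM with a prior count of 2 was permuted exactly between the groups (two-sided). The common biological coefficient of variation was 0.0733. Scripts were tested on simulated data.

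Alternatives were scaling by RLE, by the upper quartile or by the total count, DESeq2 1.42.0, limma-voom (limma 3.58.1), no filter and a filter of 10 counts in every library, a block for the replicate number, leaving out each library in turn, both libraries that stood apart left out, close libraries summed and an adjusted p under 0.01. For the log2 ratios of paralogs they were a prior count of 0.5, total-count scaling and each library left out. The members and the lists (Hippo kinases and adaptors, scaffolds and inhibitors, TEAD partners, other targets, other CCN genes, SRF targets, markers) were chosen with earlier results of these data known.

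Named are all members, TRIM28, TEAD2, TEAD3, LATS1, the genes of the pathway, target, CCN and SRF lists (not the markers) with an adjusted p under 0.05, a log2 fold change of 0.58 or more in size and no overlap between groups, and the 3 genes most like CCN1, CCN2 and ANKRD1. MINK1, WWC1, PTPN14, VGLL4, NT5E, AXL, MYOF, FLNA, TPM1 and the markers were named after their values were seen. Replicate numbers were not taken to pair the libraries. Same-numbered libraries of both groups had correlations of their deviations of 0.0523, −0.0118 and 0.0374. With 3 libraries per group and 1 standing apart in each, such values cannot exclude pairing.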

Additional observations from a re-analysis of the deposited data

How the results depend on the processing

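The log2 fold changes of AMOTL2, LATS2, CCN2 and TRIM28 had the same sign and stayed past the threshold in every alternative run. DESeq2 gave 0 higher and 3 lower members and 3 called scaffolds. Summing the close libraries gave 0, 3 and 2, and an adjusted p under 0.01 gave 0, 3 and 3. With 1 library left out at a time, the higher members were 0 to 1, the lower members 3 to 5 and the called scaffolds 2 to 8. The median log2 fold change of the members was −0.0914 with no filter, where ANKRD1 entered it. With the replicate number as a block, although pairing was not shown, 7910 genes were called against 7723, and YAP1 was the member no longer called (−0.14, adjusted p = 0.0542, edgeR). The sign of TEAD1 turned with upper-quartile scaling (0.0118) and without both apart libraries (0.0270), and it ran from −0.0645 to 0.0042 with 1 library left out, above 0 without siNC replicate 3. That of CCN1 turned with close libraries summed (−0.0098) and ran from −0.0174 without siTRIM28 replicate 2 to 0.0818 without siTRIM28 replicate 1. That of TEAD2 turned without both apart libraries (−0.0711) and without siNC replicate 2 (−0.01), and ran from −0.0748 without siTRIM28 replicate 1 to 0.0982 without siTRIM28 replicate 2. None of these 3 genes was called in any of these fits. The cause of these changes was not tested. The other members tested, LATS1, TEAD3, the named pathway and target genes and the 5 called markers kept their direction in the alternative fits they entered. These fits were 10 for CNN1, 11 for TP63, 15 each for COL1A1 and UPK1A and 16 for each of the others. The genes most like CCN1, CCN2 and ANKRD1 were not run. With 1 library left out, the difference in log2 ratio was −0.30 to −0.24 for YAP1 and WWTR1, 0.21 to 0.35 for TEAD1 and TEAD4, 0.42 to 0.48 for CCN1 and CCN2 and 0.68 to 0.86 for LATS1 and LATS2. Depth limits ANKRD1, with 3 to 18 counts per library.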
